A study of Rattus norvegicus with 4 samples.

Results

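The genes described here encode the proton pump, the proteases and the main membrane proteins of the lysosome, measured in NR8383, an established line of alveolar macrophages that was derived from a rat's lung lavage. They were chosen by symbol, with earlier results of these data known. The set took in every gene on the array named as a subunit or accessory protein of the vacuolar H+-ATPase (V-ATPase). It also took in every gene named as a cathepsin, a lysosome-associated membrane protein (LAMP), a hexosaminidase, or Npc1 or Npc2. This gave 49 genes with 58 probes, of 16581 named genes on the array. All 4 samples came from 1 group of cells, taken after 20 passages. They had received NRCWE055, single-walled carbon nanotubes labelled pristine, for 4 h at a dose given as 11 cm2/cm2. The study design calls them biological replicates, and the labels do not say whether they were separate cultures, so the spread between them may be partly technical. In replicates 2, 3 and 4 the source name gives a different nanotube code from the title, and the titles were followed. Unexposed cells were not analysed here, so no value is a response to the nanotubes.

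The lysosome breaks down material that macrophages take up, and its enzymes work in an acid interior. The V-ATPase acidifies it: its cytosolic V1 sector splits ATP, and its membrane V0 sector carries protons across. Cathepsins digest proteins there, the LAMPs coat the inner face of the membrane, hexosaminidase trims glycolipids and glycoproteins, and NPC1 and NPC2 pass cholesterol out.

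Many lysosomal genes are targets of the transcription factor TFEB, which binds a palindromic element with the core CACGTG. This core, and the longer TCACGTG that contains it, were searched on both strands of RefSeq promoters (build GRCr8), each 300 bases long from 250 bases before to 50 after a gene's start. Of the 49 members, 39 had a promoter in the table, and those without one included Atp6v0d2, Atp6v0e2, Atp6v1b2, Atp6v1c1, Atp6v1h, Ctsb, Ctsq, Ctsw and Hexa. CACGTG was found in 5 of the 39 (12.8%), compared with 7.08% of 27457 genes in the table and 9.80% of 7275 genes that were detected on all arrays. TCACGTG was found in 4 of the 39 (10.3%), compared with 3.58% and 5.68%. The median GC content of the promoters was 57.3% in members, 52.3% in all genes and 60.3% in detected genes, and the core holds a CpG. The matches are a description of these letters and do not show binding. All 5 genes with a match, Lamp1, Ctsd, Ctsf, Atp6v0d1 and Atp6v0e1, were detected on all 4 arrays, and the match of Atp6v0e1 lay after the start. Of the 39 members with a promoter, 26 were detected on all arrays. CACGTG was thus in 5 of these 26 (19.2%) and TCACGTG in 4 (15.4%).

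The stretches upstream of the start that hold the matches are shown because they include Lamp1 and Ctsd, the genes that mark this set. They are printed 5′ to 3′ on the gene's strand, with each CACGTG in capitals.
Lamp1: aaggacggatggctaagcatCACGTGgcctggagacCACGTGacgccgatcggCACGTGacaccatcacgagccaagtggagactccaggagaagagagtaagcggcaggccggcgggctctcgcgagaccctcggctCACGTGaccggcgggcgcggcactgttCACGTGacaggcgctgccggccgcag
Ctsd: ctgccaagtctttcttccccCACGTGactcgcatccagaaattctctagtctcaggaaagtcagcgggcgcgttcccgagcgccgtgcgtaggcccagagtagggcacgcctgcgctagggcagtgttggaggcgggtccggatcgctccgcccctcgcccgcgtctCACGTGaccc
Atp6v0d1: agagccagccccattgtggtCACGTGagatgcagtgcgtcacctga
Ctsf: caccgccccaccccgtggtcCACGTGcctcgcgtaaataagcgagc
The Lamp1 stretch lies at chr16:83075076-83075266 on the minus strand and holds 5 matches, which begin 183, 167, 150, 65 and 38 bases before the start. The Ctsd stretch, at chr1:206968822-206968998 on the minus strand, holds 2, which begin 157 and 10 bases before the start. Atp6v0d1 has 1 match, 52 bases before its start, at chr19:50357275-50357320 on the minus strand. Ctsf has 1 match, 149 bases before its start, at chr1:211582000-211582045 on the plus strand, and this one is not part of a TCACGTG.

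RNA was measured on 1-colour Agilent arrays, 1 per sample. Each array detected between 18585 and 19931 of 45598 probes, a probe being detected when its spots were well above background. No spot outside the controls was saturated, and control spots were not checked for this. Markers of macrophages were detected on all arrays for 8 of 8 genes, among them Cd68, Spi1 and Csf1r. Of 22 markers of lung epithelium, fibroblasts, lymphocytes, granulocytes and endothelium, 2 were detected on all arrays (Vwf and Cdh5), 4 on some and 16 on none.

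Of the 49 lysosomal genes, 34 (69.4%) were detected on all 4 arrays, 1 on 1 array and 14 on none, where 52.4% of all named genes were detected on all arrays and 41.6% on none. With a looser flag, which asks only that a spot's signal is positive and significant, 36 members passed on all arrays and 3 on none, where 19.5% of all named genes passed on none. The detected genes held a complete set of V1 subunit types, every measured V0 gene, 9 cathepsins, Lamp1, Lamp2, Hexa and both NPC genes. Those that were missing were mainly alternative isoforms of pump subunits and cathepsins known from placenta, granulocytes or other tissues. In bulk RNA, fewer cells that express a gene and less RNA per cell cannot be told apart.

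**Figure D1:**
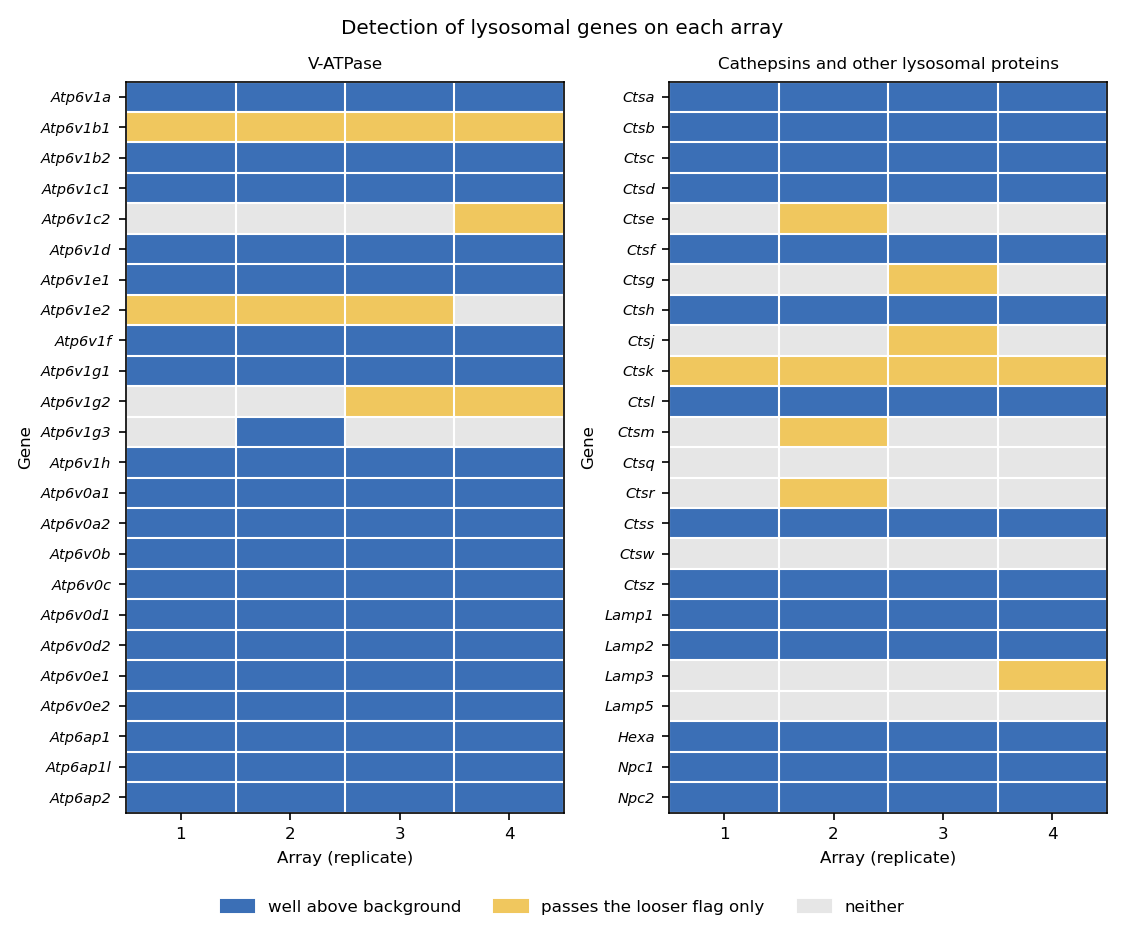
Detection of the lysosomal genes (rows, all but 1 of the 49) on each of the 4 arrays (columns). Blue marks a gene well above background, yellow one that passed only the looser flag, grey neither. Genes detected on all arrays are blue in every column, and Atp6v1g3 is blue on replicate 2 alone.

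In the V1 sector, each subunit type was detected through 1 isoform. The catalytic subunit A (Atp6v1a), the stalk and rotor subunits D (Atp6v1d) and F (Atp6v1f), and the regulatory subunit H (Atp6v1h) each come from a single gene here, and all were detected. Subunit B, which shares the catalytic head with A, was detected as Atp6v1b2 and not as Atp6v1b1, the isoform known from kidney intercalated cells. The same held for C, E and G, where Atp6v1c1, Atp6v1e1 and Atp6v1g1 were detected on all arrays. No array read Atp6v1c2, Atp6v1e2 or Atp6v1g2 well above background. Atp6v1g3, another isoform known from kidney, was well above background on replicate 2 alone, through 1 of its 2 probes. That probe had a processed signal of 4.17 on replicate 1, 56.5 on replicate 2, 4.22 on replicate 3 and 3.75 on replicate 4, and the other probe stayed between 4.25 and 5.05. Atp6v1b1 passed the looser flag on all 4 arrays, at signals of 5.20 to 16.5, and Atp6v1e2 on 3.

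In the V0 sector, 8 of 8 measured genes were detected on all arrays. They were the a subunits Atp6v0a1 and Atp6v0a2, which steer the pump to different membranes, the ring subunits Atp6v0b and Atp6v0c, both d subunits and both e subunits. Atp6v0d2, known from osteoclasts and macrophages, was among them. Tcirg1, the a3 subunit gene of lysosomes and osteoclasts, falls outside the naming rule and was also detected. No probe was matched to Atp6v0a4. The accessory genes Atp6ap1, Atp6ap1l and Atp6ap2 were all detected, and Atp6ap2 is also known as the prorenin receptor.

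Among cathepsins, 9 of 17 measured genes (52.9%) were detected on all arrays and 8 on none. This was near the share of all named genes, of which 52.4% were detected on all arrays and 41.6% on none. Detected were the serine carboxypeptidase gene Ctsa, the aspartic protease gene Ctsd and the cysteine protease genes Ctsb, Ctsc, Ctsf, Ctsh, Ctsl, Ctss and Ctsz. Ctse, a second aspartic protease, Ctsg of neutrophil granules, Ctsw of cytotoxic lymphocytes and Ctsk of osteoclasts were not well above background. Nor were Ctsj, Ctsm, Ctsq and Ctsr, which belong to the rodent placental group. Ctsk passed the looser flag on all 4 arrays, with signals of 7.76, 8.27, 9.12 and 7.93 on replicates 1 to 4. Lamp3, known from dendritic cells, and Lamp5, known from neurons, were also not well above background. No probe was matched to Ctso.

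Levels are given as log2 of the processed signal relative to each array's 75th percentile, and mean ± SD are over the 4 arrays (n = 4). They depend on each probe, so the levels of different genes are not compared.

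Ctsd, the main aspartic protease of lysosomes, was at 6.29 on replicate 1, 5.86 on replicate 2, 5.70 on replicate 3 and 6.05 on replicate 4 (5.97 ± 0.25). Ctsb, a cysteine protease with carboxypeptidase activity, was at 6.11, 5.89, 5.79 and 6.09 (5.97 ± 0.16). Replicates 2 and 3 lay below replicates 1 and 4 for both genes, with no overlap. The same held for 21.3% of all detected genes, and for 69.6% of those with a level of at least 4. Ctsc, which activates granule serine proteases, was at 1.08, 0.97, 0.99 and 1.19 (1.06 ± 0.10), in the same order of array pairs. The other cathepsins did not part the arrays in this way. Ctsl, an endopeptidase, was at -1.90, -1.81, -1.82 and -1.68 (-1.80 ± 0.09), lowest on replicate 1 and highest on replicate 4. Ctss, which processes the invariant chain of MHC class II, was at 2.10, 2.10, 2.09 and 2.03 (2.08 ± 0.03). On Ctss, replicate 4 stood below the other arrays, by less than 0.1. The carboxypeptidase gene Ctsa was at 3.89, 3.85, 3.86 and 3.82 (3.85 ± 0.03), and Ctsz, another carboxypeptidase gene, was at 3.41, 3.35, 3.40 and 3.32 (3.37 ± 0.04). The aminopeptidase gene Ctsh was at 0.85, 0.94, 0.89 and 0.90 (0.90 ± 0.04). Ctsf, a further cysteine protease gene, was at 0.43, 0.39, 0.38 and 0.29 (0.37 ± 0.06). These 4 genes varied little, and all but Ctsh were lowest on replicate 4.

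Lamp1 was at 1.71, 1.70, 1.82 and 1.76 on replicates 1 to 4 (1.75 ± 0.05). Lamp2, whose product also serves chaperone-mediated autophagy, was at -0.063, -0.044, -0.050 and 0.075 (-0.020 ± 0.06), highest on replicate 4. From lowest to highest array, Lamp1 spanned 0.12 and Lamp2 0.14. Npc1, the membrane transporter, was at 0.90, 1.02, 0.96 and 0.91 (0.95 ± 0.06), and Npc2, the soluble carrier that hands cholesterol to it, was at 2.43, 2.45, 2.57 and 2.39 (2.46 ± 0.07). For both NPC genes, replicates 2 and 3 lay above the other arrays. Hexa, a hexosaminidase gene, was at 0.77, 0.83, 0.83 and 0.72 (0.79 ± 0.05), also higher on replicates 2 and 3. Of all detected genes, 19.9% were higher on both of these arrays.

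**Figure D2:**
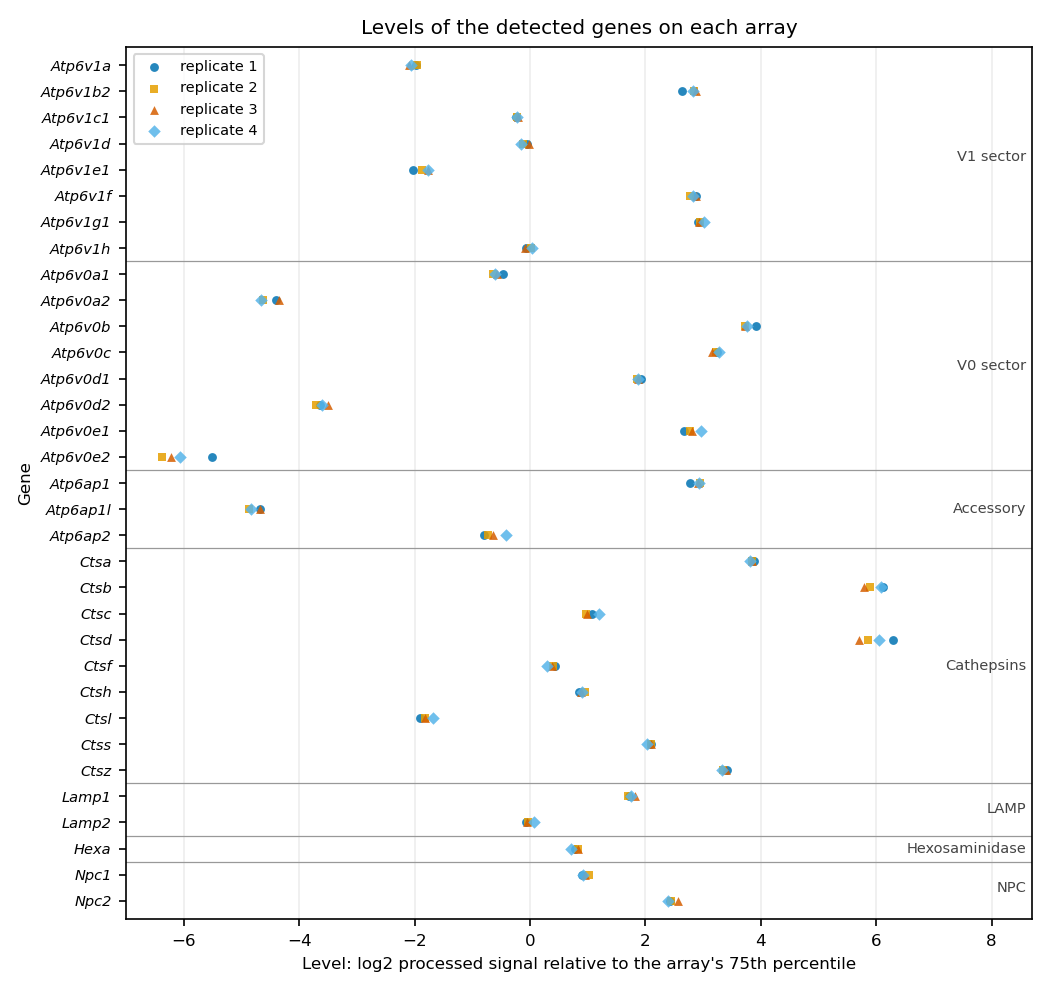
Levels of the detected genes (all but 1 of the 34) on each array. The x axis is the log2 processed signal relative to the array's 75th percentile, rows are genes grouped by role, and each symbol is 1 array. For most genes the 4 symbols overlap, and Atp6v0e2 and Ctsd have the widest spans, 0.86 and 0.59.

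Pump subunits were close between arrays for most genes. Atp6v1c1, which couples V1 to V0, had the smallest SD of all members, at -0.25, -0.23, -0.21 and -0.23 on replicates 1 to 4 (-0.23 ± 0.02). Atp6v0d1, a V0 subunit at the same joint, was at 1.92, 1.86, 1.86 and 1.87 (1.88 ± 0.03). Near the middle was Atp6v1a at -1.97, -1.95, -2.10 and -2.06 (-2.02 ± 0.07). The widest was Atp6v0e2, an isoform of the small e subunit, at -5.51, -6.37, -6.22 and -6.07 (-6.04 ± 0.38). Its level was close to the detection limit, since the lowest detected probe of each array lay between -7.49 and -6.81. Without replicate 1, the largest span among members was 0.36, in Ctsd, in place of 0.86 in Atp6v0e2.

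The remaining V1 genes were Atp6v1b2 at 2.80 ± 0.11, Atp6v1d at -0.084 ± 0.06, Atp6v1e1 at -1.86 ± 0.12, Atp6v1f at 2.84 ± 0.05, Atp6v1g1 at 2.95 ± 0.04 and Atp6v1h at -0.027 ± 0.06. Atp6v1b2 and Atp6v1e1 were the most variable V1 genes, and both were lowest on replicate 1. The remaining V0 genes were Atp6v0a1 at -0.57 ± 0.08, Atp6v0a2 at -4.51 ± 0.15, Atp6v0b at 3.78 ± 0.10, Atp6v0c at 3.23 ± 0.05, Atp6v0d2 at -3.61 ± 0.09 and Atp6v0e1 at 2.80 ± 0.13. Tcirg1 was at 2.71 ± 0.04. Among accessory genes, Atp6ap2 was at -0.81, -0.72, -0.65 and -0.41 on replicates 1 to 4 (-0.65 ± 0.17), highest on replicate 4. Atp6ap1 was at 2.77, 2.95, 2.91 and 2.94 (2.89 ± 0.08), lowest on replicate 1. Atp6ap1l was at -4.67, -4.87, -4.67 and -4.84 (-4.76 ± 0.11).

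The median SD over the 34 detected members was 0.0721, beside 0.0926 over all 8685 detected genes. Across all genes the median SD fell with level, from 0.179 below -4 to 0.0592 between 2 and 4, and was 0.0970 from 4 upward. Members had a median SD of 0.0513 between 2 and 4 (11 genes), 0.0777 beside 0.0775 over all genes between -2 and 0 (9 genes), and 0.205 from 4 upward (Ctsb and Ctsd). No member spanned over 2-fold between its lowest and highest array, where 1.11% of all detected genes did. No test was made over the members, which are genes and not replicates.

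The probes of Ctsa, Ctsd and Ctsl were printed 10 times on each array, which gives the spread between spots within an array. Before scaling, the mean processed signal of Ctsd was 137052 on replicate 1, 153248 on replicate 2, 148413 on replicate 3 and 123968 on replicate 4, whereas the 75th percentile signal was 1756, 2631, 2861 and 1873. The signal of Ctsd thus differed less between arrays than the percentile did. Within arrays, the SD over spots of Ctsd was 0.071 to 0.102 on the log2 scale, and the array means spanned 0.59. Ctsl spots had an SD of 0.054 to 0.092 within arrays, and array means that spanned 0.23. For Ctsa the array means spanned 0.065, under the SD of 0.067 to 0.121 within arrays. Part of the Ctsa spread recurred at the same spot on every array. Its spot 2 was at 4.00, 4.05, 3.96 and 3.97 on replicates 1 to 4, and its spot 5 at 3.77, 3.73, 3.73 and 3.74. Spots were not matched by position between arrays, so this SD holds more than measurement error.

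A moderated F test from limma over replicate spots, adjusted by Benjamini-Hochberg, compared arrays and not conditions. With 1 array per sample, samples and arrays cannot be told apart. It called 44.3% of the 2319 probes printed several times. These calls were 67.3% of the 1350 probes printed 10 times, and 118 of the 969 probes printed 2 times. Ctsd (limma adjusted p = 2.83e-13) and Ctsl (limma adjusted p = 5.42e-06) differed between arrays. Ctsa (limma adjusted p = 0.630) and Atp6v0e1, printed 2 times (limma adjusted p = 0.0977), did not pass. The test did not match spots by position, so this does not show that the arrays agree. Atp6v1g2, printed 2 times, also passed (limma adjusted p = 0.00297), but no array read it well above background. Its signals were 4.58, 4.76, 15.0 and 8.72 on replicates 1 to 4, and it passed the looser flag on replicates 3 and 4. At such low signals this difference is not read further. The call of Ctsl was lost without replicate 4, with outlier spots kept and with normexp correction, while Ctsd and Atp6v1g2 were called under each of these. The calls on Ctsd and Ctsl are read against these shares and are not particular to lysosomal genes.

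**Figure D3:**
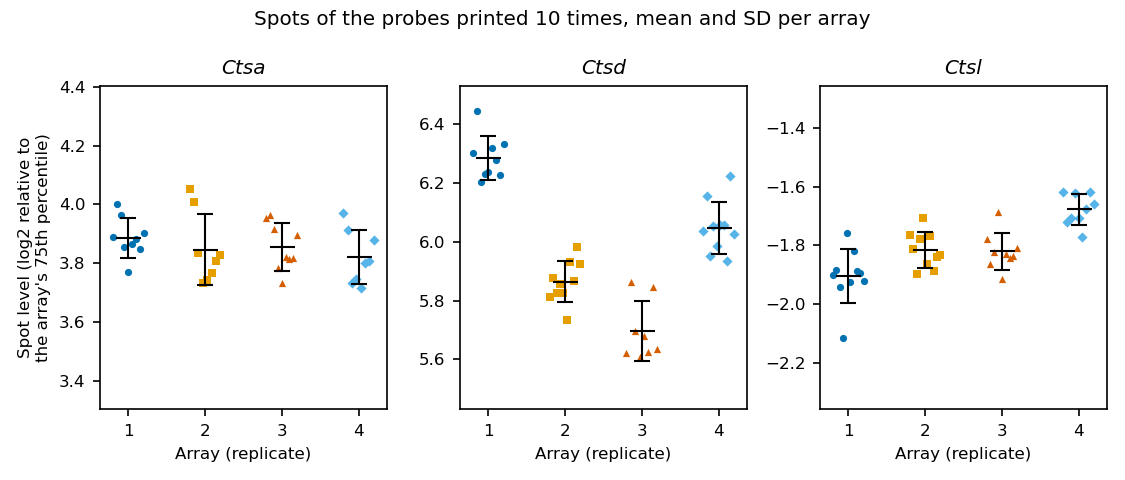
Spots of the Ctsa, Ctsd and Ctsl probes on each array. The y axes are log2 levels relative to the array's 75th percentile and have the same length but different positions, each point is 1 spot, and bars are the mean ± SD over the 8 to 10 usable spots. Ctsd parts replicate 1 from replicates 2 and 3, whereas the Ctsa spots of all arrays overlap.

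Replicates 2 and 3 were the brighter arrays by their 75th percentile. Of the 34 detected members, 7 (20.6%) were lower on both of these arrays than on both others, where 21.3% of all detected genes were. Higher on both were 4 members (11.8%), namely Atp6v1b2, Hexa, Npc1 and Npc2, where 19.9% of all detected genes were. The 7 lower genes were Ctsb, Ctsc, Ctsd, Atp6v0b, Atp6v0c, Atp6v0d1 and Atp6v0e2. Among them were 4 of 8 V0 genes and 0 of 8 detected V1 genes. Atp6v0c was counted by the mean of a pair of probes that disagreed on this. Its higher probe was lower on both, at 3.64, 3.43, 3.51 and 3.61 on replicates 1 to 4. Its lower probe was not, at 2.85, 3.03, 2.80 and 2.93. The share in the whole set was near that of all genes, and the split between the sectors depended on the scaling. Of the 4 V0 genes, only Atp6v0e2 was still lower on both with quantile normalization or with the 75th percentile of all probes. Atp6v0b and Atp6v0e2 were with centring on the median. Before scaling, the signals of Atp6v0e2 were 38.5, 31.8, 38.3 and 27.9 on replicates 1 to 4, lowest on replicate 4. Of all detected genes with a level below -4, 29.7% were lower on both with the scaling used here. With normexp correction 5 of 8 V0 genes (Atp6v0a2, Atp6v0b, Atp6v0c, Atp6v0d2 and Atp6v0e2) and 1 of 8 V1 genes (Atp6v1h) were lower on both. Under that correction 45.5% of all detected genes were lower on both.

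For Ctsd the mean of replicates 2 and 3 minus that of replicates 1 and 4 was -0.39 on the log2 scale, and for Ctsb it was -0.26. With quantile normalization these differences were -0.075 and 0.044, so that of Ctsb changed sign. Both genes belong to the 224 detected genes with a level of at least 4, of which 69.6% were lower on both brighter arrays, with a median difference of -0.13. Over all detected genes the median difference was 0.0022. Spike-in RNAs added in the Agilent protocol, which do not come from the cells, were read by 8 probes above background on all of their 35 spots. Of these, 2 were lower on both brighter arrays. They were the brightest, at 7.29, 6.72, 6.57 and 7.06 on replicates 1 to 4, and the third brightest, at 5.28, 4.81, 4.75 and 5.04. The second brightest was not, at 5.52, 5.30, 5.45 and 5.31. The order of the arrays for Ctsd was thus also that of the brightest spike-in. The part of array brightness in the values of Ctsd and Ctsb was not tested.

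**Figure D4:**
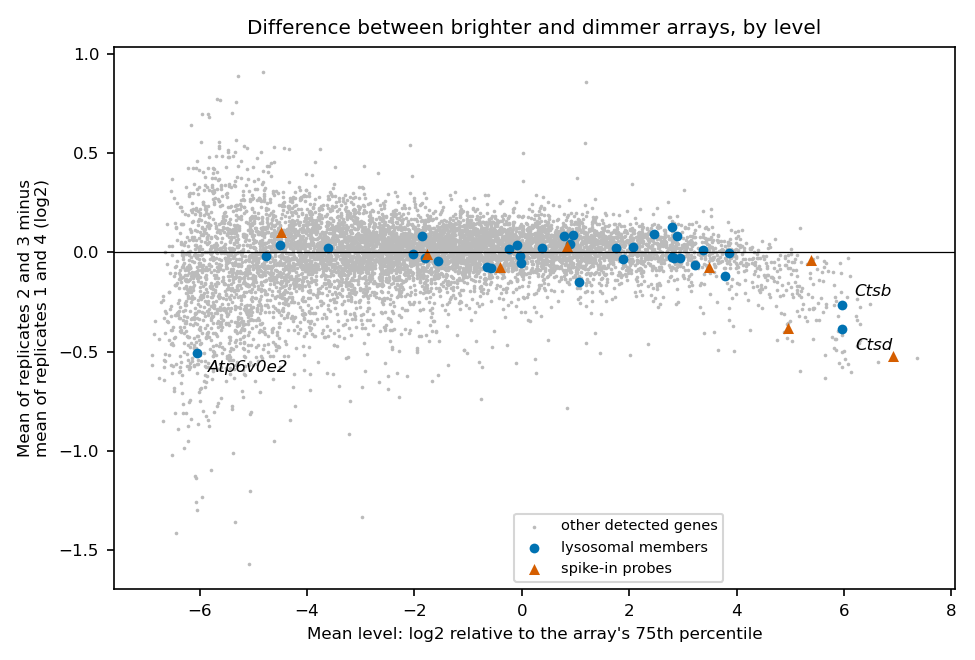
Difference between the brighter and dimmer arrays against level. The x axis is the mean level over the 4 arrays and the y axis the mean of replicates 2 and 3 minus the mean of replicates 1 and 4, both log2. Grey points are other detected genes, blue points the 34 members and triangles the 8 spike-in probes. Most members lie near 0, while Ctsd at -0.39 and Ctsb at -0.26 lie among other bright genes below 0, and Atp6v0e2 lies at -0.51.

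Probes of a gene could read it at very different levels. Of the 9 members with several probes, 6 had a pair of detected probes, and Atp6v1g3 was the only one whose probes disagreed on detection. The pair of Atp6v1a probes lay 3.76, 3.70, 3.56 and 3.79 apart on replicates 1 to 4 (3.70 ± 0.10), and that of Atp6v0a2 lay 3.13 ± 0.19 apart. The pair of Lamp2 lay 2.89, 2.93, 2.89 and 2.58 apart (2.83 ± 0.16). Its higher probe was at 1.39 ± 0.02 and its lower probe at -1.43 ± 0.14. On replicate 4 only the lower probe rose, to -1.22 against -1.51 to -1.50 elsewhere. The higher probe was at 1.37 there, close to its other values of 1.38 to 1.42. In Atp6v0c, Atp6v1h and Atp6ap2 the gap was 0.65 ± 0.17, 0.45 ± 0.10 and 0.28 ± 0.02. The lower and higher probes of Atp6v0c had SDs of 0.099 and 0.096, beside 0.05 for their mean. Gaps varied between arrays by far less than their own size in the 3 genes with gaps over 2. Both Atp6ap2 probes were highest on replicate 4.

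**Figure D5:**
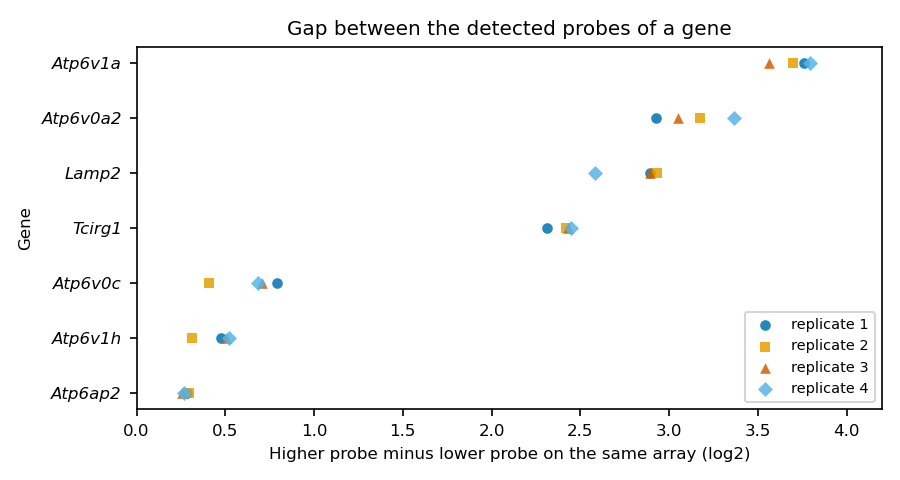
Gap between the pair of detected probes of a gene on each array. The x axis is the higher minus the lower probe on the same array (log2), rows are genes, and symbols are arrays. The gaps run from 0.28 ± 0.02 in Atp6ap2 to 3.70 ± 0.10 in Atp6v1a, and Tcirg1, which is outside the naming rule, is at 2.40 ± 0.06.

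The other genes of the pathway, taken from lists of lysosomal genes, were detected for 67 of 74 measured genes, where 52.4% of all named genes were. The lists were chosen with earlier results of these data known, so this count is a description and not independent support. Hydrolases other than cathepsins were detected for 28 of 30, with Arsb and Hyal1 not well above background. Lipa, the lysosomal lipase, was at 1.70 ± 0.07. Lgmn, the legumain that matures several cathepsins, was at 0.40 ± 0.05. Acp5, the tartrate-resistant acid phosphatase of osteoclasts and alveolar macrophages, was at -5.56 ± 0.35.

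Other lysosomal membrane proteins were detected for 20 of 20 genes. Mcoln1, a calcium channel, was at 0.38 ± 0.07, Scarb2, a membrane glycoprotein, at -0.73 ± 0.08, and Clcn7, the chloride-proton exchanger, at -2.37 ± 0.18. The genes of mannose 6-phosphate and sortilin delivery were detected for 5 of 5, with the receptor gene Igf2r at 1.81 ± 0.11. Of 7 activators and inhibitors, 4 were detected. Cst3 and Cstb, cystatins that inhibit cysteine cathepsins, were at 2.55 ± 0.06 and 3.60 ± 0.03, and Psap, which gives rise to the saposins, was at 4.04 ± 0.07. Csta, Cst6 and Cst7 were not well above background.

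Among V-ATPase genes outside the naming rule, 6 of 8 were detected on all arrays, and Dmxl2 and Wdr7, which help to assemble the pump, on 2 and 3 arrays. All 4 MiT/TFE factor genes were detected, with Tfeb at -1.41 ± 0.08, Tfe3 at -1.75 ± 0.10, Mitf at -0.90 ± 0.23 and Tfec at -4.08 ± 0.11. Mitf was lowest on replicate 1, at -1.22 against -0.85 to -0.67 on the others.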

How the data were processed

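Total RNA of 4 NRCWE055 samples was labelled with Cy3 and read on 1-colour Agilent arrays of 1 slide. Per the file headers, Agilent Feature Extraction (version 11.0.1.1) made the deposited files. The deposited processed signal is an intensity, background-subtracted and detrended within each array per the file headers, and not normalized between arrays. Deposited flags of 0 or 1 give detection, saturation and outliers. Control spots and outlier spots (427 to 714 per array) were left out, and log2 signals were averaged over the spots of a probe. For scaling, each array's 75th percentile was subtracted, taken over the 17807 probes that every array detected. RefSeq accessions named 21109 probes through a GRCr8 table. A gene's level is the mean of its detected probes. The test over replicate spots used limma 3.58.1 in R 4.3.3 with a threshold of 0.05, over all replicated probes. On simulated data (2319 probes, 50 changed at each size) it recovered 10% of changes of 0.1, 58% of 0.25, 66% of 0.5 and 86% of 1. It called 6 of 2119 unchanged probes. Simulated spots varied independently, without effects shared by position, and changes were put on 1 array only. The rates pool probes with few and many spots, so they need not hold for these data. Precision is limited by having 4 arrays. Members and lists were chosen with earlier results of these data known. Members were named whatever their values, except 1 that is counted but not reported here. Values per array are given for detected cathepsin, LAMP, NPC and accessory genes, Hexa, and subunits with the highest, median and lowest SD. The list genes named were picked after their values were seen. Protein sequences were not used here. Alternatives were normexp correction of median signals (offset 50), other scalings, a looser flag, other filters, the brightest probe, kept outlier spots and leaving out each replicate.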

Additional observations from a re-analysis of the deposited data

Results flagged for a closer look

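Dixon's ratio asked whether 1 array stood apart from the rest. Of 35 series tested, 3 passed its critical value, where chance alone gives about 1 in 20, or 1.75 here. Atp6v0d1 was higher on replicate 1, at 1.92 against 1.86 to 1.87 on the others. Ctss was lower on replicate 4, at 2.03 against 2.09 to 2.10. Lamp2 was higher on replicate 4, at 0.075 against -0.063 to -0.044. This level is the mean of a pair of probes, of which only the lower rose there. The lower probe was at -1.22 against -1.51 to -1.50, and the higher probe at 1.37, its lowest value, against 1.38 to 1.42.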

How the results depend on the processing

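No paired analysis was possible because there was 1 group. Naming probes by a gene name column was not run, since the files used hold none. Leaving out each replicate in turn left 34 members detected on all arrays and 14 to 15 on none. It gave 0 members spanning over 2-fold, a median SD of 0.0610 to 0.0728, 2 to 3 member probes that differed between arrays and a median member level of 0.91 to 1.02. Under the alternatives run, the median SD stayed between 0.0610 and 0.0991 and the number detected on all arrays between 34 and 36. Over all genes the median SD lay between 0.0797 and 0.244. With no filter on dim probes it was 0.0991 in members beside 0.244 over all genes. With normexp correction it was 0.0903 beside 0.0988, a smaller gap than with the main processing. With the looser flag 36 members were detected on all arrays and 3 on none, and 1, Atp6v1b1, spanned over 2-fold. With no filter on dim probes 4 did. The number of members lower on both brighter arrays, 7, was 12 with normexp correction (45.5% of all genes), 2 with quantile normalization (16.0%), 4 with the 75th percentile of all probes (15.5%) and 17 of 49 with no filter on dim probes (45.9%). The median member level, 0.92, was 0.70 with normexp correction, 3.35 centred on the median, 4.53 with the 75th percentile of all probes, 1.62 with the looser flag, -0.57 with no filter and 1.002 with the brightest probe. The other scalings subtract another value, and so does the looser flag, whose percentile is taken over the probes that pass it. The filters and the brightest probe change which probes enter. For normexp correction the cause was not tested. Normexp correction moved the median brighter-minus-dimmer difference over all genes to -0.072, and no filter on dim probes to -0.13. With tests on detected probes only, an alternative chosen after seeing the data, 2 of 4 member probes differed. Signal over background limits what can be said of the 15 genes not detected on all arrays.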
